A study of Homo sapiens with 4 samples.

Results

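The genes described here are 10 cytoskeletal genes, which are the actin genes ACTB and ACTG1, the α-tubulin genes TUBA1A, TUBA1B and TUBA1C, and the β-tubulin genes TUBB, TUBB4B, TUBB6, TUBB2A and TUBB2B. With them go the 55 annotated pseudogenes whose symbols start with ACTBP, ACTG1P, TUBAP or TUBBP. The 10 genes were chosen by MYC peaks already seen in later exons of actin and tubulin genes in these same peak lists, so their counts of MYC peaks are a description with no test. They are 10 of 19881 protein-coding genes, the pseudogenes are 55 of 15399, and together they hold 13 of the 1723 MYC peaks.

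The peaks come from ChIP-seq, in which DNA bound by a protein or carrying a histone mark is pulled down with an antibody and sequenced. The cells were HAP1, a human line labelled as near-haploid that descends from the chronic myelogenous leukemia line KBM-7. The series holds 4 libraries, 1 each for MYC, for H3K27ac (acetylated lysine 27 of histone H3, a mark of active promoters and enhancers), for normal rabbit IgG and for input DNA. MYC peaks were called against input and H3K27ac peaks against IgG, so the fold enrichments of the 2 lists are on different scales. There are no replicates, and the lists do not give the reads behind each peak, so no difference was tested. Fold enrichment is the signal at a peak's summit divided by the control signal there, and −log10 q is its significance after correction for multiple testing.

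As a check of the cells, promoters of 7 genes were looked up in the H3K27ac list. No promoter peak was found at PTPRC, GATA1, CD34 or HBG1, which are genes of blood lineages. SPI1, a transcription factor of myeloid and B cells, had a promoter peak with a fold of 5.00, and KIT, a receptor of progenitor cells, had one with a fold of 4.62. At VIM, the gene of the intermediate filament vimentin, no summit lay within 1 kb of the transcription start site (TSS) of the canonical transcript, but a peak with a fold of 2.86 reached into that window, and a peak with a fold of 5.22 lay at least in part within 1 kb of another annotated TSS of the gene. The blood markers were thus mostly without the mark in this leukemia-derived line. Of all protein-coding genes, 64.1% had a promoter H3K27ac peak.

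Actin monomers assemble into filaments that shape and move the cell, and α- and β-tubulin form the dimers from which microtubules are built. The mRNAs of these genes are abundant in dividing cells, and many have been copied back into the genome as processed pseudogenes, which resemble the spliced mRNA and lack its introns. MYC is a transcription factor that binds DNA with its partner MAX, best at the E-box CACGTG, and is known mainly from promoters.

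A peak was called a promoter peak when its summit lay within 1 kb of the canonical TSS and outside exon 2 and later exons, and a later-exon peak when its summit lay in exon 2 or a later exon. Of the 10 genes, 6 had a MYC peak in the gene or 2 kb upstream, against 6.43% of all protein-coding genes. A promoter MYC peak was present at 2 of the 10 (3.57% of all genes), namely ACTB and TUBB4B. A later-exon MYC peak was present at 5 of the 10 (1.7% of all genes with 2 or more exons), namely ACTB, ACTG1, TUBA1B, TUBA1C and TUBB. Since MYC peaks chose the genes, nothing is read from the distance of these counts to the shares of all genes. TUBA1A, TUBB6, TUBB2A and TUBB2B had no MYC peak. ACTB was the gene with peaks of both kinds.

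**Figure D1:**
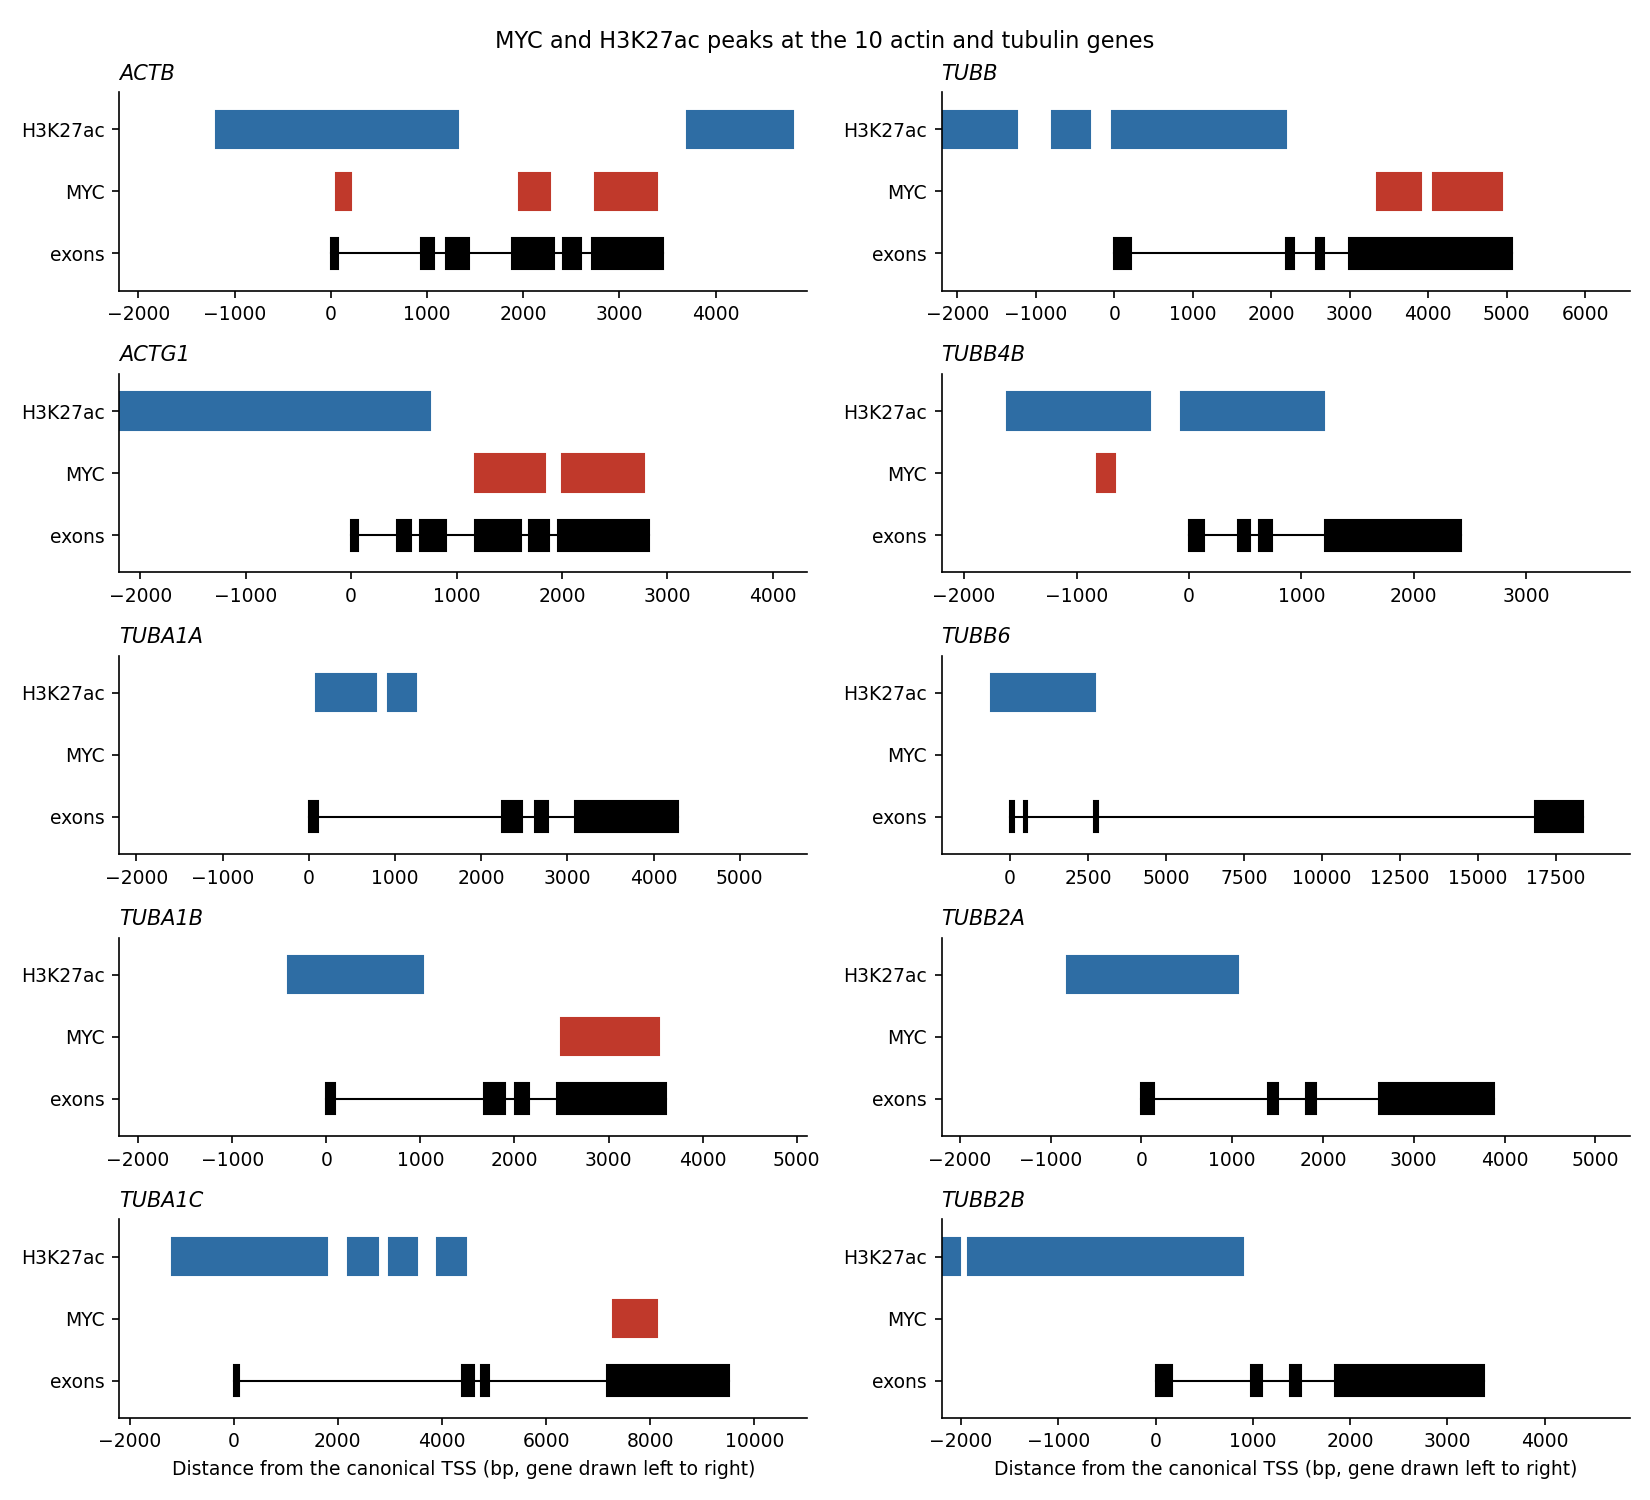
MYC peaks (red) and H3K27ac peaks (blue) above the exons (black) of the canonical transcript of each of the 10 genes, by distance from its TSS in bp, with each gene drawn left to right from 2 kb upstream on and each panel on its own scale. H3K27ac peaks lie at the 5′ end of all 10 genes, whereas the 8 later-exon MYC peaks of ACTB, ACTG1, TUBA1B, TUBA1C and TUBB lie over exons further along and touch no H3K27ac peak.

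All 10 genes had a promoter H3K27ac peak, a feature of 64.1% of protein-coding genes. Among the actins the strongest promoter peak had a fold of 18.5 at ACTB and 19.4 at ACTG1. Among the α-tubulins it was 15.2 at TUBA1A, 14.3 at TUBA1B and 28.8 at TUBA1C. Among the β-tubulins it was 19.5 at TUBB, 43.3 at TUBB4B, 30.7 at TUBB6, 18.6 at TUBB2A and 14.1 at TUBB2B. The median of the 10 was 19.02, beside 17.6 over all genes with such a peak, so most of these promoters were marked about as strongly as others. TUBB4B stood highest, at rank 183 of 87087 H3K27ac peaks. The 4 genes without a MYC peak had folds of 14.1 to 30.7 and overlapped in this range with the genes that had one.

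ACTB encodes β-actin, the main actin of non-muscle cells together with γ-actin. Its 3 MYC peaks were a promoter peak, a peak in exon 4 and a peak in the last exon, exon 6. The promoter peak was 163 bp wide, with a fold of 5.60, a −log10 q of 8.28 and its summit 125 bp after the TSS, in intron 1. It lay within the promoter H3K27ac peak. The exon 4 peak (chr7:5567952-5568279) was 328 bp wide, with a fold of 7.52 and a −log10 q of 21.4, and all of its bases were coding sequence of exon 4, of which it covered 74.7%. The exon 6 peak (chr7:5566844-5567485) was 642 bp wide, with a fold of 5.11 and a −log10 q of 23.5. It covered 86.3% of exon 6 and no intron, and 104 of its bases were coding while its summit was not. Neither later-exon peak reached an H3K27ac peak, and the nearest were 633 bp and 315 bp away. At ACTB the later-exon peaks thus had the higher −log10 q of the 3.

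ACTG1 encodes γ-actin and had no promoter MYC peak. Its exon 4 peak (chr17:79477988-79478651) was 664 bp wide, with a fold of 6.80 and a −log10 q of 12.2. It covered 99.8% of exon 4 and ran on through the next intron into exon 5, so that 88.1% of its bases were in exons. Its exon 6 peak (chr17:79477048-79477823) was 776 bp wide, with a fold of 7.72 and a −log10 q of 24.8, and covered 89.9% of the last exon. The peaks of the 2 actin genes therefore fell on the same exons, 4 and 6, and left exons 2, 3 and 5 without a summit. The coding sequences of ACTB and ACTG1 are 91.3% identical.

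The α-tubulin genes TUBA1A, TUBA1B and TUBA1C lie on chromosome 12 and encode nearly the same protein. TUBA1A is best known from developing neurons, while TUBA1B and TUBA1C are expressed in most tissues. TUBA1C had a MYC peak in exon 4, its last exon (chr12:49666158-49666998), 841 bp wide, with a fold of 9.16 and a −log10 q of 18.6. This was the highest fold of the 8 later-exon peaks and rank 177 of the 1723. The TUBA1B peak (chr12:49521642-49522679), also in exon 4, was 1038 bp wide, with a fold of 7.91 and a −log10 q of 20.01. It covered 89.7% of the exon, against 35.8% at TUBA1C, where the exon is 2348 bp long and the peak stayed in coding sequence. No intron base lay in either peak. The coding sequence of TUBA1A is 97.2% identical to that of TUBA1B and 95.9% to that of TUBA1C, yet TUBA1A had no MYC peak. Its last exon is 1196 bp long, close to the 1157 bp of TUBA1B.

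Among the β-tubulins, TUBB is the widely expressed member of class I and TUBB4B that of class IV. TUBB had 2 later-exon peaks, both in its last exon, exon 4. The first (chr6:30691474-30692043) was 570 bp wide, with a fold of 4.24 and a −log10 q of 6.51, and all of it was coding sequence. The other (chr6:30692196-30693075) was 880 bp wide, with a fold of 5.45 and a −log10 q of 8.69, and held no coding base. TUBB had no promoter MYC peak, and its peaks were below a −log10 q of 10, unlike the later-exon peaks of the other 4 genes. The coding sequence of TUBB is 80.9% to 84.7% identical to those of the other 4 β-tubulin genes, none of which had a later-exon MYC peak. This holds for TUBB2A and TUBB2B, which are 98.2% identical to each other, and for TUBB6. The first TUBB summit with 50 bases on each side, all coding, on GRCh37 and in the direction of transcription, is given beside the same stretch of TUBB4B and TUBB2A, where capitals mark the 15 and 16 bases that differ from TUBB.

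TUBB (chr6:30691502-30691602, plus strand): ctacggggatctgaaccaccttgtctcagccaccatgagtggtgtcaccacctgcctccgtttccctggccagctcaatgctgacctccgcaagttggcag
TUBB4B (chr9:140137333-140137433, plus strand): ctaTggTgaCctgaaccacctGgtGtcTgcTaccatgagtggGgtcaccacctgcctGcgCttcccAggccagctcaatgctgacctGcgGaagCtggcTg
TUBB2A (chr6:3154672-3154772, minus strand): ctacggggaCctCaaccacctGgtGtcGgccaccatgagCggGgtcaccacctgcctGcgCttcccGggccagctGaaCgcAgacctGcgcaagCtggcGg

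The TUBB4B peak (chr9:140134921-140135081) was a promoter peak 161 bp wide, with a fold of 3.59, a −log10 q of 2.56 and a rank of 1484 of 1723. Its summit lay 707 bp upstream of the TSS, and it overlapped an H3K27ac peak with a fold of 36.3. It was thus the weakest MYC peak of the 10 genes and lay beside the strongest H3K27ac promoter among them. It is the peak of the 13 that holds CACGTG, at chr9:140134954-140134959 and 76 bp from the summit, and it also holds CACGCG, a weaker E-box, at chr9:140134967-140134972. Of all MYC peaks, 22.6% hold CACGTG and 17.1% hold CACGCG on either strand. Both are in capitals in the sequence of the whole peak. Neither was found on either strand of the ACTB promoter peak.

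TUBB4B promoter peak (chr9:140134921-140135081, plus strand): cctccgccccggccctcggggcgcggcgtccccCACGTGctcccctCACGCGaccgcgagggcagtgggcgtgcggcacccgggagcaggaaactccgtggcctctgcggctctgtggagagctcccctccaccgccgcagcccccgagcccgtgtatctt

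Over all 13 MYC peaks at the genes and pseudogenes, none had CACGTG within 50 bp of its summit, beside 12.3% of all MYC peaks. With only 13 peaks, nothing is read from this difference. The share among later-exon MYC peaks of other genes is not given. With 100 bp on each side, or anywhere in the peak, the count was 1, that of TUBB4B, beside 19.7% and 22.6% of all MYC peaks. Within 500 bp of the canonical TSS, CACGTG was found at ACTG1 and TUBA1C and at none of the other 8 genes, beside 18.3% of protein-coding genes. Neither ACTG1 nor TUBA1C had a promoter MYC peak. A match of these letters is a description of the sequence and says nothing of binding.

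The 8 later-exon peaks had several features in common, of which the share in exons follows in part from the rule that their summits lie in an exon. Of their 5739 bases, 5660 (98.6%) lay in exons of the canonical transcript, and 7 of the 8 peaks lay wholly within 1 exon. The exception is the ACTG1 peak that spans the intron between exons 4 and 5. In 6 of the 8 the exon was the last of the transcript, as in 87.2% of the 358 later-exon MYC peaks of other protein-coding genes. In 5 of the 8 the summit was in coding sequence, beside 25.1% of those 358. None overlapped an H3K27ac peak, beside 45.5% of all MYC peaks and 6.15% of the 358. Of the 358, 91.6% lay wholly within 1 exon. The absence of H3K27ac and the place within an exon, mostly the last, were thus common to later-exon MYC peaks in general.

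**Figure D2:**
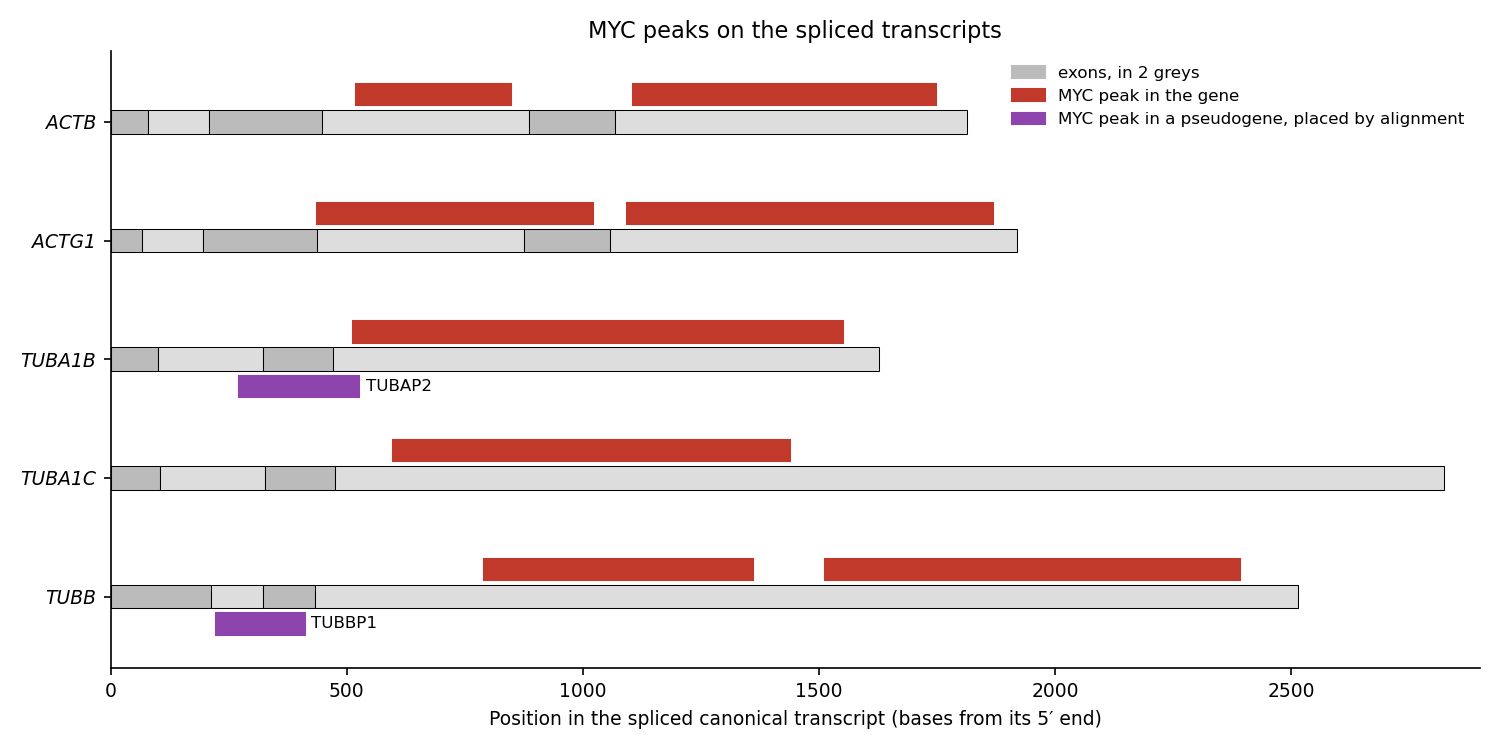
Spliced canonical transcripts of the 5 genes with later-exon MYC peaks, by position in bases from the 5′ end, with exons as boxes in alternating greys, the peaks of the gene in red above and the peaks of TUBAP2 and TUBBP1 in purple below, placed by alignment. The red peaks start in exon 4 or later, and the 2 purple peaks start in exon 2.

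The later-exon peaks were also wide. Their median width was 720 bp, from 328 to 1038 bp, beside 235 bp for the 358 later-exon peaks of other genes and 237 bp for all MYC peaks. The TUBA1B peak was the widest of all 366 later-exon peaks, and the exon 4 peak of ACTB, at rank 108, was the narrowest of the 8. Their folds had a median of 7.16, beside 5.83 in other genes. A share of 8.30% of all MYC peaks was at least 500 bp wide, and 7 of these 8 were. Since later-exon MYC peaks chose the genes, nothing is read from the distance of these widths and folds to those of other peaks. ACTB, ACTG1 and TUBB were 3 of the 45 protein-coding genes with 2 or more later-exon MYC peaks.

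**Figure D3:**
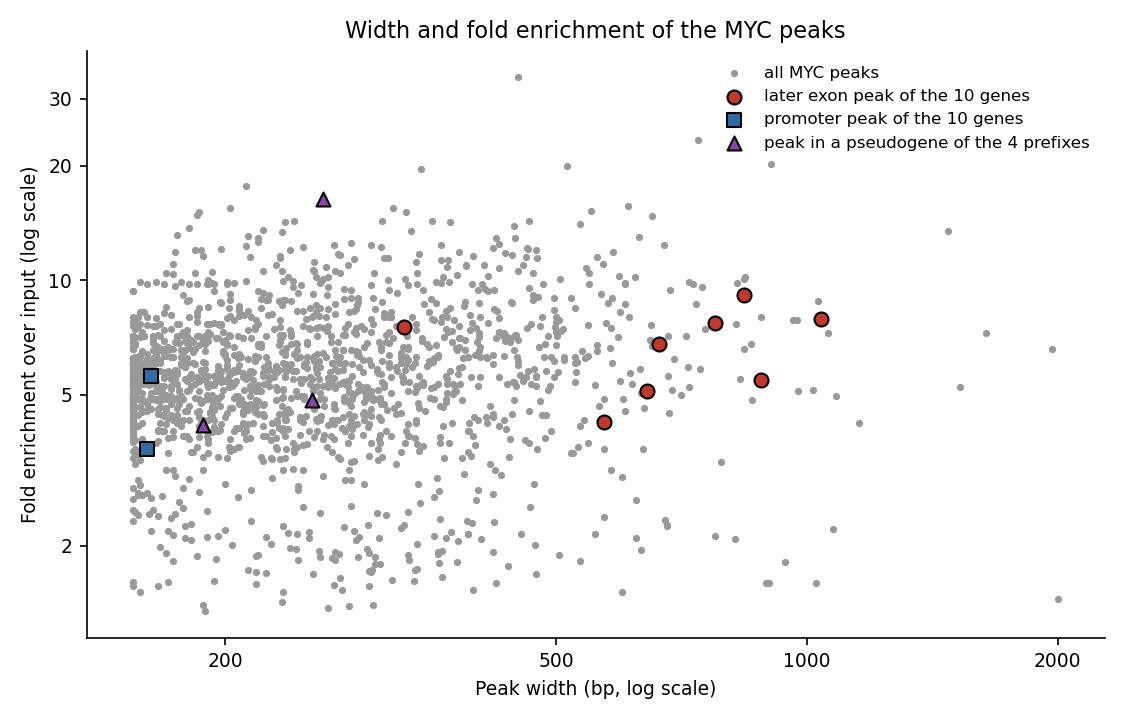
Width in bp and fold enrichment over input of the 1723 MYC peaks, both on log scales, with the 8 later-exon peaks (red circles) and 2 promoter peaks (blue squares) of the 10 genes and the 3 peaks in pseudogenes (purple triangles). The later-exon peaks lie at large widths and middling folds, and the promoter peaks are narrow.

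The 10 genes have 34 exons from exon 2 on, of which 7 held a MYC summit. These 7 were between 439 and 2348 bp long. The 22 exons shorter than 400 bp, the longest of 240 bp, held none, but they make up only 18.3% of the 18142 bases of these exons. The median length of the exon around the summit was 1010 bp for the 8 peaks, beside 1278 bp for the 358 later-exon peaks of other genes, so exons with summits were long there too. Length did not separate the genes with peaks from those without, because the last exons of TUBA1A (1196 bp), TUBB4B (1212 bp), TUBB6 (1550 bp), TUBB2A (1258 bp) and TUBB2B (1535 bp) were as long and held no summit. How much mRNA each gene made was not measured, so its relation to the peaks was not tested.

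**Figure D4:**
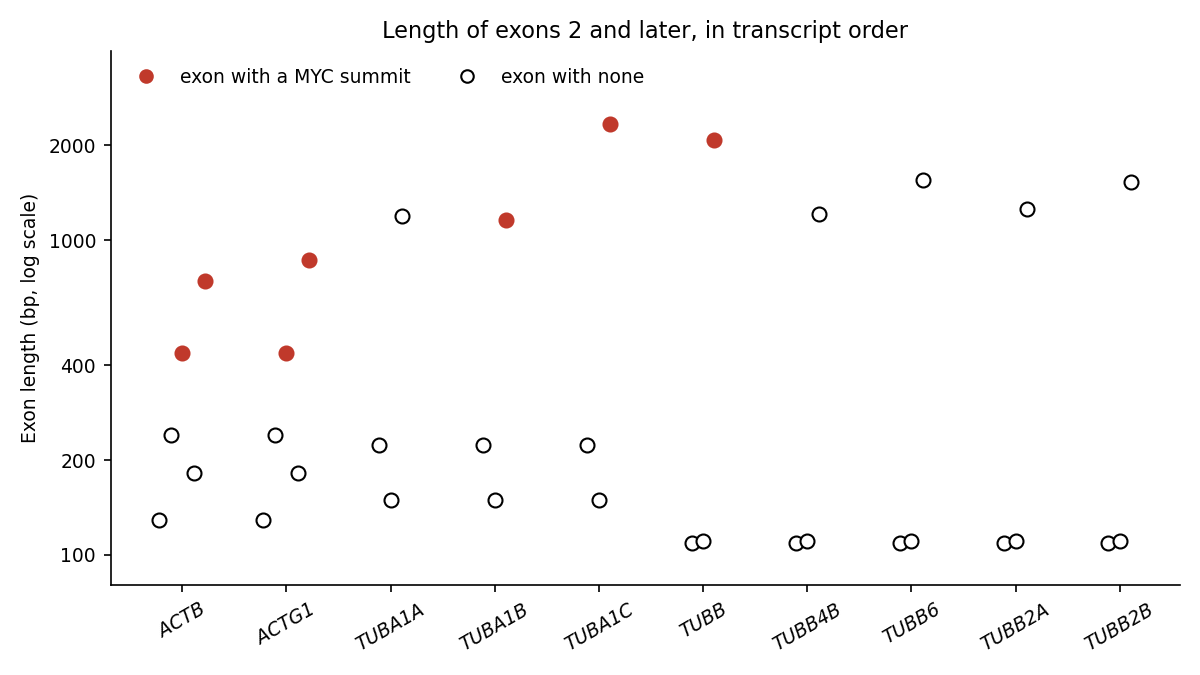
Length in bp, on a log scale, of exons 2 and later of the 10 genes in transcript order, filled red where a MYC summit lies in the exon. All 7 red exons are at least 439 bp long, and 5 long last exons are without a summit.

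Since many of these genes have processed copies, each MYC summit with 100 bp on each side was compared with the rest of the genome. A near-identical copy, meaning a match with 90% identity or more to 80% or more of this window, was found for 11 of the 13 peaks and for all 8 later-exon peaks, beside 42.5% of all MYC peaks and 55.9% of the later-exon peaks of other genes. The 2 promoter peaks had none. These genes have close relatives and pseudogenes are copies of genes, so a high share with a copy follows in part from the choice of members. The 8 later-exon windows had 37 copies in all. Of these, 6 lay in the 10 genes, and 4 of the 6 were in a MYC peak. They included the reciprocal copies of the ACTB and ACTG1 windows in exon 4. The rest were the copies of the TUBA1B and TUBA1C windows, which are different stretches of the sequence, in each other's gene. By this measure the TUBA1C window matches its copy in TUBA1B at every base, and the TUBA1B window is 97.0% identical to its copy in TUBA1A, which had no MYC peak. The other 31 copies lay outside the 10 genes, with identities up to 96.0%, and none of them held a MYC peak. The ACTB exon 4 window had 13 copies, 12 of them outside the 10 genes, among them copies in POTEM, POTEI, POTEJ, POTEE and POTEF, genes of a primate family that carry an actin-like part. At a limit of 95% identity, 4 of the 13 peaks had a copy, and the share of all MYC peaks was not counted at this limit. How reads that fit several places were assigned cannot be read from the lists, and its part in these peaks was not tested.

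Of the 55 pseudogenes, 3 had a MYC peak, beside 1.47% of all annotated pseudogenes. None of the 33 actin pseudogenes had one, and the 3 were TUBAP2, TUBBP1 and TUBBP9, among the 22 of the tubulins. An H3K27ac peak was present at 2 of the 55, ACTG1P17 and TUBBP9, beside 6.65% of all pseudogenes. In neither did the H3K27ac peak lie in the part that resembles actin or tubulin. At a −log10 q of at least 10, TUBBP9 alone kept its MYC peak.

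The TUBBP9 peak does not lie in tubulin sequence. It had the highest fold of the 13 peaks, 16.4, with a −log10 q of 33.9 and rank 7 of the 1723. TUBBP9 is annotated over 65933 bp, and the peak (chr6:39926187-39926448) shared no base with its exons. It lay within an unnamed processed pseudogene (ENSG00000180211) inside an intron. Its near-identical copy, with 91.5% identity, was RPL23P8, a pseudogene of a ribosomal protein gene, which also held a MYC peak. The part of TUBBP9 that resembles TUBB, with 85.5% identity over 795 bases, held no MYC peak. Counted by aligned sequence, a rule chosen after seeing the data, 2 of the 55 pseudogenes had a MYC peak and none had an H3K27ac peak.

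TUBAP2 is a processed copy of TUBA1B on chromosome 11, inside an intron of the noncoding gene DISC1FP1, and is 95.8% identical to the transcript over 1626 bases. Its peak (chr11:90015999-90016252) was 254 bp wide, with a fold of 4.84 and a −log10 q of 8.31. The nearest H3K27ac peak was 59349 bp away. Placed on the TUBA1B transcript, the peak covers bases 272 to 525, which run from exon 2 through exon 3 into exon 4 and are 97.2% identical. TUBA1B's own peak covers bases 513 to 1550, so the 2 share 13 bases of transcript position. The pseudogene and its parent gene thus had peaks over almost separate parts of the same mRNA sequence.

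A pattern of the same kind was seen at TUBBP1, a processed and transcribed copy of TUBB with 97.1% identity over 1646 bases. Its peak (chr8:30209591-30209778) was 188 bp wide, with a fold of 4.16 and a −log10 q of 3.001, and the nearest H3K27ac peak was 31376 bp away. On the TUBB transcript it covers bases 223 to 410, in exons 2 and 3. The peaks of TUBB cover bases 790 to 1359 and 1512 to 2391, so the nearer of them starts 379 bases further on. In TUBB itself, exons 2 and 3 are 109 and 111 bp long and held no peak. Both pseudogene peaks therefore lay mainly over short exons of the parent transcript, which in the pseudogene are joined without introns.

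By identity to their parent transcript, TUBBP1 and TUBAP2 ranked 2 and 3 among the 39 pseudogenes that align over at least 1000 bases. Rank 1 was TUBBP5, with 97.2% identity over 1059 bases to TUBB8, a tubulin of oocytes, and it had no MYC peak. TUBBP2, 97.1% identical to TUBB over 380 bases, also had none. ACTBP2 followed at rank 4 with 92.9%, and no pseudogene from there on had a peak in its aligned part. Among the actin pseudogenes the identity ranged from 73.5% to 92.9% with a median of 87.2%, and among the tubulin pseudogenes from 77.9% to 97.2% with a median of 86.0%. No actin pseudogene was thus as close to a gene as TUBAP2 or TUBBP1. Whether identity is related to the peaks was not tested. Of all 1723 MYC peaks, 10 matched an actin or tubulin transcript with at least 80% identity over at least 100 bases, and these were the 8 later-exon peaks and the peaks of TUBAP2 and TUBBP1.

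**Figure D5:**
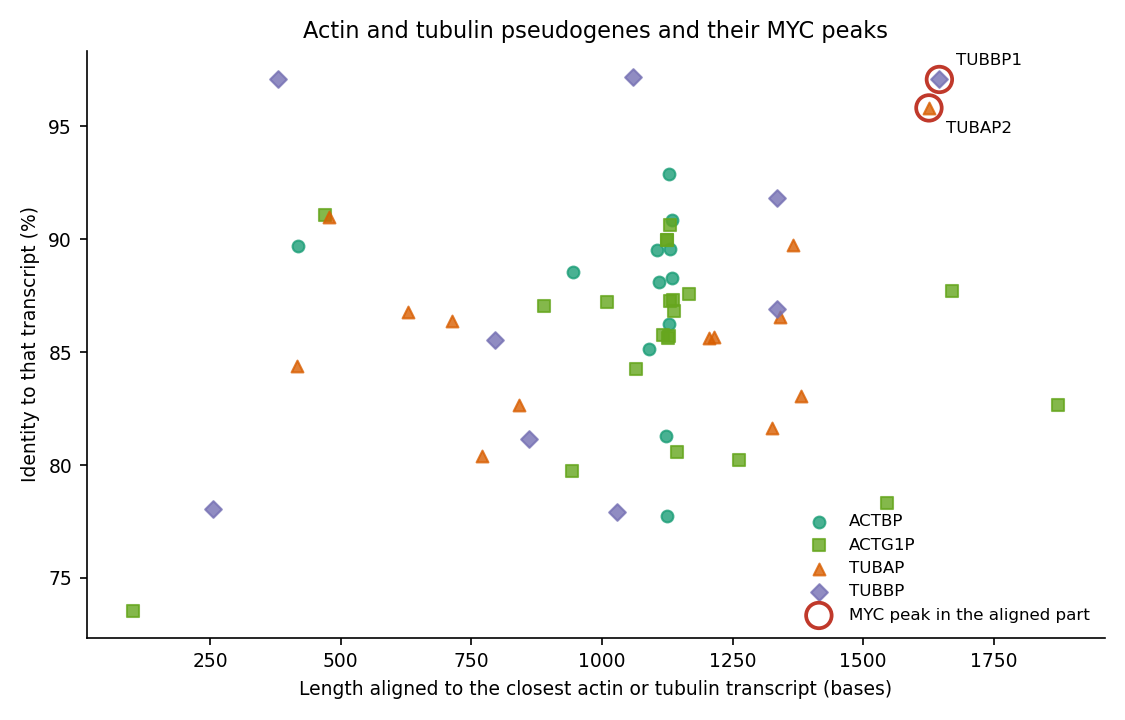
Identity in percent and aligned length in bases of each actin and tubulin pseudogene to its closest transcript, by symbol prefix, with red rings around those with a MYC peak in the aligned part. The 2 ringed pseudogenes, TUBBP1 and TUBAP2, combine a long alignment with a high identity.

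Other genes of the same families and partners of actin and tubulin were looked up in lists chosen with the 10 genes. Of 19 further actin and tubulin genes, such as the muscle actins and γ-tubulins, none had a MYC peak, and 6 had a promoter H3K27ac peak. Of 34 genes of actin assembly and binding, 10 had a MYC peak, 8 of them a later-exon peak and 1 a promoter peak, while 32 had a promoter H3K27ac peak. Over all protein-coding genes the shares were 6.43% with a MYC peak, 3.57% with a promoter one and 64.1% with a promoter H3K27ac peak, and 1.7% of those with 2 or more exons had a later-exon one. PFN2, a profilin that binds actin monomers, had the promoter peak, with a fold of 11.8. ARPC2, a subunit of the Arp2/3 complex that branches filaments, had a later-exon peak with a fold of 7.88, and ACTR2 of the same complex one with 4.36. CAPZA1, which caps filament ends, had a later-exon peak with a fold of 6.05, and the profilin PFN1 one with 5.45. TPM3, a tropomyosin that lies along the filament, had a peak of neither kind with a fold of 6.27.

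Of 22 genes of tubulin folding and microtubule nucleation and dynamics, 5 had a MYC peak, 2 at the promoter and 2 in a later exon, and 21 had a promoter H3K27ac peak, to be read beside the same shares over all genes. Both lists were chosen with results of these data known, and neither was tested. The promoter peaks were those of TBCB, a tubulin folding cofactor, with a fold of 6.72, and of MAPRE1, which follows growing microtubule ends, with 3.17. The later-exon peaks were those of DYNLL1, a light chain of dynein, with a fold of 5.58, and of STMN1, which takes tubulin dimers out of polymerization, with 4.22. CLASP1, which binds microtubule plus ends, had a peak of neither kind with a fold of 3.44.

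The stricter limit of a −log10 q of at least 10 left 4 of the 10 genes with a later-exon MYC peak and 0 with a promoter MYC peak. With the promoter set at 500 bp from the TSS, ACTB alone had a promoter MYC peak. Shares over all protein-coding genes were not counted under these rules, so nothing is read from these counts. The annotation puts other transcripts on the opposite strand at the peaks of TUBA1B (TUBA1B-AS1), TUBA1C (ENSG00000258232) and the first of TUBB (ENSG00000272540), and ChIP-seq does not tell the strands apart.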

How the data were processed

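MYC and H3K27ac peaks of HAP1 cells were read as deposited, 1 library each. Per the submitters' processing notes, Bowtie2 (2.2.4) and MACS2 (2.1.1) were used after bcl2fastq (2.20). The authors aligned to hg19 and called narrow peaks. The fold enrichment is the authors' ratio of signal to control at the summit. The −log10 p and −log10 q values are the authors', and the p was left out. The deposited score, a rounded multiple of the −log10 q, was also left out. The depth of the libraries is not in the lists.

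Genes and exons came from GENCODE release 44 on GRCh37, and sequences from that genome. Peaks, exons and motifs were joined in Python (3.11.15) with pandas (2.3.3), numpy (2.4.6) and pysam (0.24.0), and plotted with matplotlib (3.10.9). Copies of the window at each summit and matches of pseudogenes to transcripts were found with BLAST (2.17.0). CACGTG reads the same on both strands, and CACGCG was searched on both. Named are all 10 genes, every pseudogene of the 4 prefixes with a MYC peak, and up to 6 list genes with a MYC peak in order of fold. ACTG1P17, POTE genes and pseudogenes at the top of the identity order were named after their values were seen. The members and lists were chosen with earlier results of these data known. The alternatives were stricter peaks and other rules for promoters, exons, overlaps, motifs and copies. The classing of summits and the overlaps of peaks and genes were tested on simulated peaks, and the searches for motifs and copies were not.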

Additional observations from a re-analysis of the deposited data

How the results depend on the processing

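Of 31 alternative values, 19 stayed within 1.5 times the count or within the interval of the share, and 12 did not. That interval is a binomial one over the bases of the later-exon peaks. Neighbouring bases are not independent, so it is too narrow and measures no spread between peaks. Keeping only peaks with a −log10 q of at least 10 left 7 of the 13 MYC peaks and gave 0 genes with a promoter MYC peak in place of 2, 1 pseudogene with a MYC peak in place of 3, 98.2% of later-exon peak bases in exons in place of 98.6%, and 7 peaks with a near-identical copy in place of 11. Fewer peaks enter these counts by construction, and shares over all genes, pseudogenes and MYC peaks were not counted under this limit. A promoter of 500 bp gave 1 gene with a promoter MYC peak. CACGTG was near 1 peak with 100 bp on each side and in 1 peak when the whole peak was searched, in place of 0. A copy of at least 95% identity was found for 4 peaks, with no share of all MYC peaks counted at this limit. Exons of any transcript took in 100% of the later-exon peak bases. For pseudogenes with an H3K27ac peak, 2 in the main count, the summit rule gave 1, the wider symbols 4, and the aligned part, a rule chosen after seeing the data, 0. The counts of genes with a MYC peak, a later-exon MYC peak or a promoter H3K27ac peak, and the absence of H3K27ac at later-exon MYC peaks, stayed within 1.5 times under every alternative tried. No paired analysis was possible because each antibody has 1 library. The peak lists hold no read counts, and genes without a listed peak may have signal below the threshold.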
